A study of Mus musculus with 6 samples.

Results

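Meg3, Rian, Mirg and Dlk1 of the Dlk1-Meg3 domain, H19 and Igf2 of the H19-Igf2 domain, and Peg3, Igf2r, Plagl1 and Grb10 are imprinted genes, transcribed mainly from 1 parental copy. These 10 genes, of 48432 genes in the deposited table, were described in mouse liver with hepatic loss of Klf15. They were chosen from earlier results of the same Li-KO against Ctl comparison, so their levels and calls are a description and carry no p-value. All 10 were in the table, and 9 of them had enough counts to be tested, Dlk1 being the exception. In Li-KO liver the noncoding RNAs Meg3, Rian, Mirg and H19 were called higher, Peg3 was called lower, and Igf2, Igf2r, Plagl1 and Grb10 were not called.

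Mice of the Li-KO group lacked Klf15, which encodes a Kruppel-like transcription factor, in the liver only, and mice of the Ctl group carried the Albumin-Cre transgene alone. Livers of both groups were taken at 10 weeks of age, with 3 libraries per group, numbered 0, 1 and 2. The albumin promoter drives Cre recombinase in hepatocytes, so that the loss is directed to these cells. The deleted exon, the sex, the feeding state and the hour of sampling are not given in the labels, nor whether each library came from a separate mouse, and the p-values therefore reflect only how far these libraries spread.

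Imprinted genes lie in clusters that share a control region methylated on 1 parental chromosome. In the Dlk1-Meg3 domain the maternal chromosome transcribes the noncoding RNAs Meg3, Rian and Mirg, and the paternal chromosome transcribes the protein-coding genes Dlk1, Rtl1 and Dio3. H19 is a maternal noncoding RNA, and Igf2 is the paternal gene of the same cluster, with enhancers shared between them. Many such genes are abundant in the fetal liver and fall to low levels after birth. The counts here do not separate the parental alleles.

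Each library held 30132496 to 42782324 counts over measured genes in Li-KO and 35454667 to 42433779 in Ctl. Klf15 had 54.3, 41.6 and 51.8 CPM (counts scaled to library totals of equal size) in Li-KO replicates 0, 1 and 2, against 345, 174 and 196 CPM in Ctl replicates 0, 1 and 2. Its log2 fold change was -2.28 ± 0.26 (SE, adjusted p = 0.00275, edgeR quasi-likelihood test, Benjamini-Hochberg over all genes tested). Of 16533 genes tested, 12.0% were called changed at an adjusted p under 0.05, with 6.11% called higher and 5.9% called lower in Li-KO. The CPM of the groups did not overlap for 35.2% of the genes tested. In whole-liver RNA, fewer cells of a type and less RNA per cell cannot be told apart.

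Meg3 (ENSMUSG00000021268.17, chr12:109541001-109571726, plus strand, mm10) is a noncoding RNA gene at the head of the maternal transcripts of its domain. The 300 bases around its upstream start site in RefSeq, chr12:109540746-109541045 on the plus strand of GRCm38.p6, are shown with those of Peg3, chr7:6730370-6730669 on the minus strand, since these genes moved in opposite directions. Capitals mark CACCC or its reverse complement GGGTG, letters that Kruppel-like factors are known to bind.
Meg3 promoter: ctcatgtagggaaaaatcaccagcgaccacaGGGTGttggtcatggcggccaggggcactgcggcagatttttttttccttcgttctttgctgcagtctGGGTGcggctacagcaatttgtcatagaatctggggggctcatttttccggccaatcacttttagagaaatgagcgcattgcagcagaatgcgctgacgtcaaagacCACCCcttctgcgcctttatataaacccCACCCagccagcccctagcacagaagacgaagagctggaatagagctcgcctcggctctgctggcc
Peg3 promoter: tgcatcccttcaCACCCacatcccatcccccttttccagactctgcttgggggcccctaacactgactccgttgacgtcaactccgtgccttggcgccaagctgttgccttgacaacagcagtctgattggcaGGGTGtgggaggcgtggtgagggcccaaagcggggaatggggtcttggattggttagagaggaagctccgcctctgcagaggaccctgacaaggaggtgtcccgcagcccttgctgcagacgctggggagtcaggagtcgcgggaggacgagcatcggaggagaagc
The Meg3 window held 4 matches, beginning 219, 151, 44 and 16 bases before the start, and the Peg3 window held 2, beginning 238 and 117 bases before it. At least 1 match on either strand was present in 57.5% of 32851 RefSeq promoters of the same length, so a match is a description of these letters only. Both windows shown held 13 CpG dinucleotides, against a median of 7 over all promoters. The median number of matches over all promoters was 1. A downstream Meg3 window held 7 matches and 1 CpG, and the Rian window held 0 matches. Windows of Igf2 held 1, 0, 4 and 4 matches and those of Grb10 held 2 and 3, and neither gene was called. Mirg, Dlk1 and Igf2r had 2 matches each and Plagl1 had 0. A relation of matches to direction was not tested. RefSeq promoters were matched for 9 of the 10 genes, all but H19.

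Meg3 had 119, 74.8 and 63.7 CPM in Li-KO replicates 0, 1 and 2, against 2.18, 6.06 and 8.99 CPM in Ctl replicates 0, 1 and 2. The lowest Li-KO library lay far above the highest Ctl library, and the groups did not overlap. The means were 85.7 ± 29.1 CPM in Li-KO and 5.74 ± 3.42 CPM in Ctl (SD, n = 3 each), a ratio of 14.9, with a log2 fold change of 3.90 ± 0.48. The call stood in all 15 alternatives, and leaving out 1 library at a time gave 3.51 to 4.38 on the log2 scale. The alternatives, here and for the other genes, reuse the libraries on which the 10 genes were chosen. A call that stands thus describes the settings and adds no support.

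Rian (ENSMUSG00000097451.9, chr12:109603940-109661716, plus strand) is the host transcript of a cluster of box C/D small nucleolar RNAs. It had 83.8, 41.7 and 57.7 CPM in Li-KO replicates 0, 1 and 2, against 1.56, 6.65 and 6.47 CPM in Ctl replicates 0, 1 and 2. Again no Ctl library came near a Li-KO library. The means were 61.1 ± 21.2 CPM in Li-KO and 4.89 ± 2.89 CPM in Ctl, a ratio of 12.5, with a log2 fold change of 3.65 ± 0.51.

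Mirg (ENSMUSG00000097391.8, chr12:109729764-109749460, plus strand), the host of a microRNA cluster at the far end of the domain, was lower in level and was also called higher. Its values were 15.7, 6.07 and 9.75 CPM in Li-KO replicates 0, 1 and 2, against 0.144, 0.996 and 0.822 CPM in Ctl replicates 0, 1 and 2. The Ctl values rest on 6, 37 and 31 counts, against 486, 189 and 401 in Li-KO. Mirg passed the filter on low counts through its Li-KO libraries, since 2 of 3 Ctl libraries exceeded the limit of 0.27 CPM. Its call therefore has little weight as a test. The means were 10.5 ± 4.84 CPM in Li-KO and 0.654 ± 0.45 CPM in Ctl, with a log2 fold change of 4.01 ± 0.60. The calls of Rian and Mirg also stood in all 15 alternatives, with the log2 fold change of Mirg falling to 1.63 on FPKM with a pseudocount of 1.

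**Figure D1:**
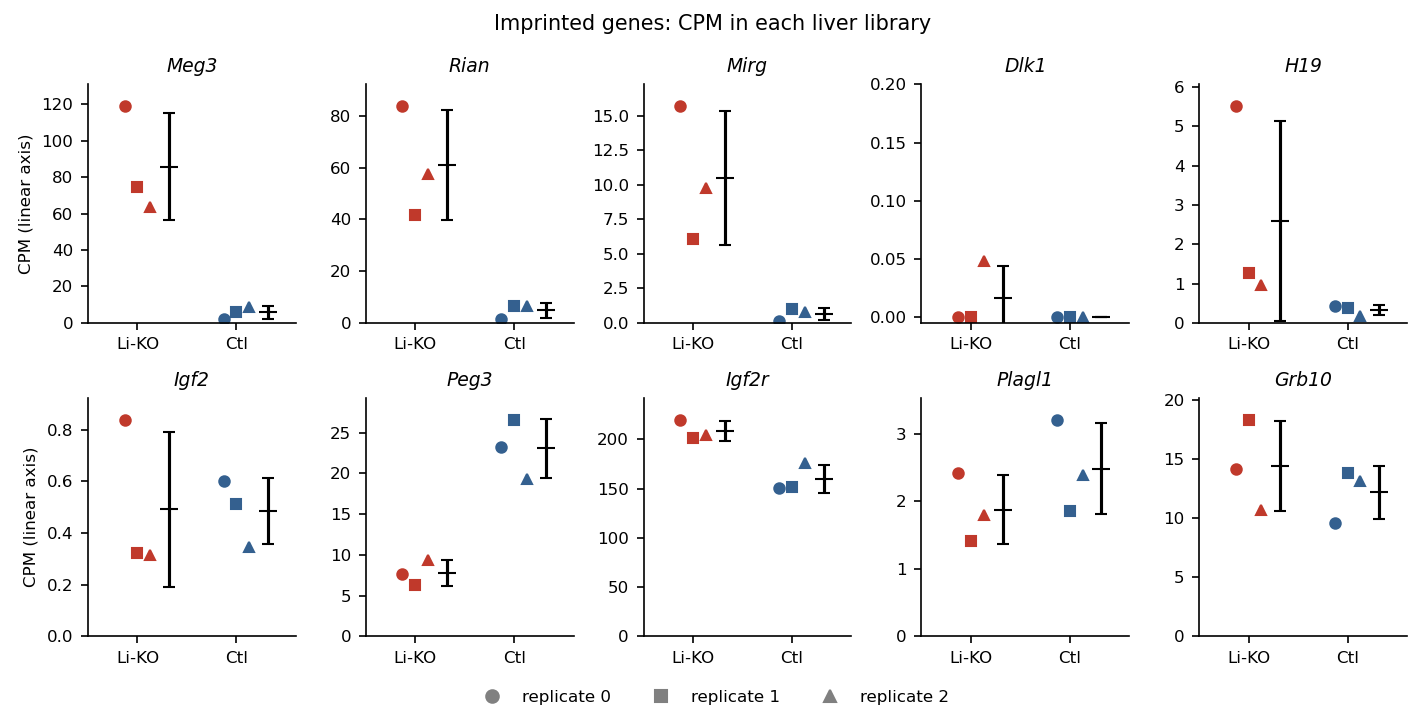
CPM on a linear axis for each of the 10 imprinted genes in the 3 Li-KO libraries (left, red) and the 3 Ctl libraries (right, blue), with marker shapes for the replicate numbers and black bars for the mean ± SD. The Li-KO libraries sit above all Ctl libraries for Meg3, Rian, Mirg, H19 and Igf2r and below them for Peg3, and replicate 0 stands apart among the Li-KO libraries for H19.

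The 3 RNAs are hosts of small RNAs, whose sequences show what the transcripts carry, with the seed (bases 2 to 8) in capitals. By RefSeq annotation on GRCm38.p6, 3 mature microRNAs lie inside Meg3 on its strand, 6 inside Rian and 26 inside Mirg, and 2 lie inside H19. Each of the following stands for 1 host, and mmu-miR-453 and mmu-miR-496a-5p are the only pair of these microRNAs with a shared seed.
mmu-miR-770-5p (Meg3): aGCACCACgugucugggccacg
mmu-miR-370-3p (Rian): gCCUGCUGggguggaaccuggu
mmu-miR-410-3p (Mirg): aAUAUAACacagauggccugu
mmu-miR-453 (Mirg): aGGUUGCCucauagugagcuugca
mmu-miR-496a-5p (Mirg): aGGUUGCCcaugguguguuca
mmu-miR-675-5p (H19): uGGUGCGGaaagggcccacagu
The protocol names a total RNA kit and the series' design text speaks of mRNA, and neither describes a small RNA library, so the host transcripts are not read as levels of the mature microRNAs. Whether RNAs without a poly(A) tail were captured bears on the levels of these hosts and was not tested. The 13 small nucleolar RNA genes annotated inside Rian had no counts in the table.

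Between the start of Meg3 and the end of Mirg, a span of 208 kb, the table lists 100 genes, of which 11 had any count and 6 were tested. All 6 lie on the plus strand, all 6 had a positive log2 fold change, and 4 were called higher, beside 6.11% of all genes tested. Apart from Meg3, Rian and Mirg, which were chosen on this comparison, these were unnamed transcripts. Gm37899, Gm26945 and B830012L14Rik had 0.0959, 0.0479 and 0.0479 CPM in Ctl replicate 0, under the filter limit of 0.27 CPM. Like Mirg, they passed the filter through their Li-KO libraries, so that their shared direction and calls have little weight as a test. Gm37899 had 8.77, 3.02 and 8.04 CPM in Li-KO replicates 0, 1 and 2, against 0.0959, 1.37 and 0.743 CPM in Ctl replicates 0, 1 and 2. Its groups did not overlap, and it was called higher (3.17 ± 0.73, adjusted p = 0.0304, edgeR). That call was lost without Li-KO replicate 0 or 1 or Ctl replicate 1 or 2, and in the 3 fits on FPKM. The log2 fold changes of Gm26945 and B830012L14Rik were 2.98 and 2.50 and were not called (adjusted p = 0.0518 and 0.0593, edgeR). Gm26945 lies within the bounds of Rian on the same strand, so that reads may have been split between them.

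The paternal side of the domain was close to silent in both groups. Dlk1 (ENSMUSG00000040856.17, chr12:109452823-109463336, plus strand), a transmembrane ligand of the Notch family, had counts of 0, 0 and 2 in Li-KO and 0, 0 and 0 in Ctl. A limit of 3 counts corresponds to 0.0729 to 0.0967 CPM in the Li-KO libraries and 0.0719 to 0.0807 CPM in the Ctl libraries, covering counting error only. A difference in Dlk1 was not detectable at this depth. Rtl1, a retrotransposon-derived gene, had counts of 0, 0 and 1 in Li-KO and 0, 1 and 0 in Ctl. Dio3, a deiodinase that inactivates thyroid hormone, had 0, 1 and 15 counts in Li-KO and 7, 2 and 0 in Ctl. Neither of them had enough counts to be tested.

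**Figure D2:**
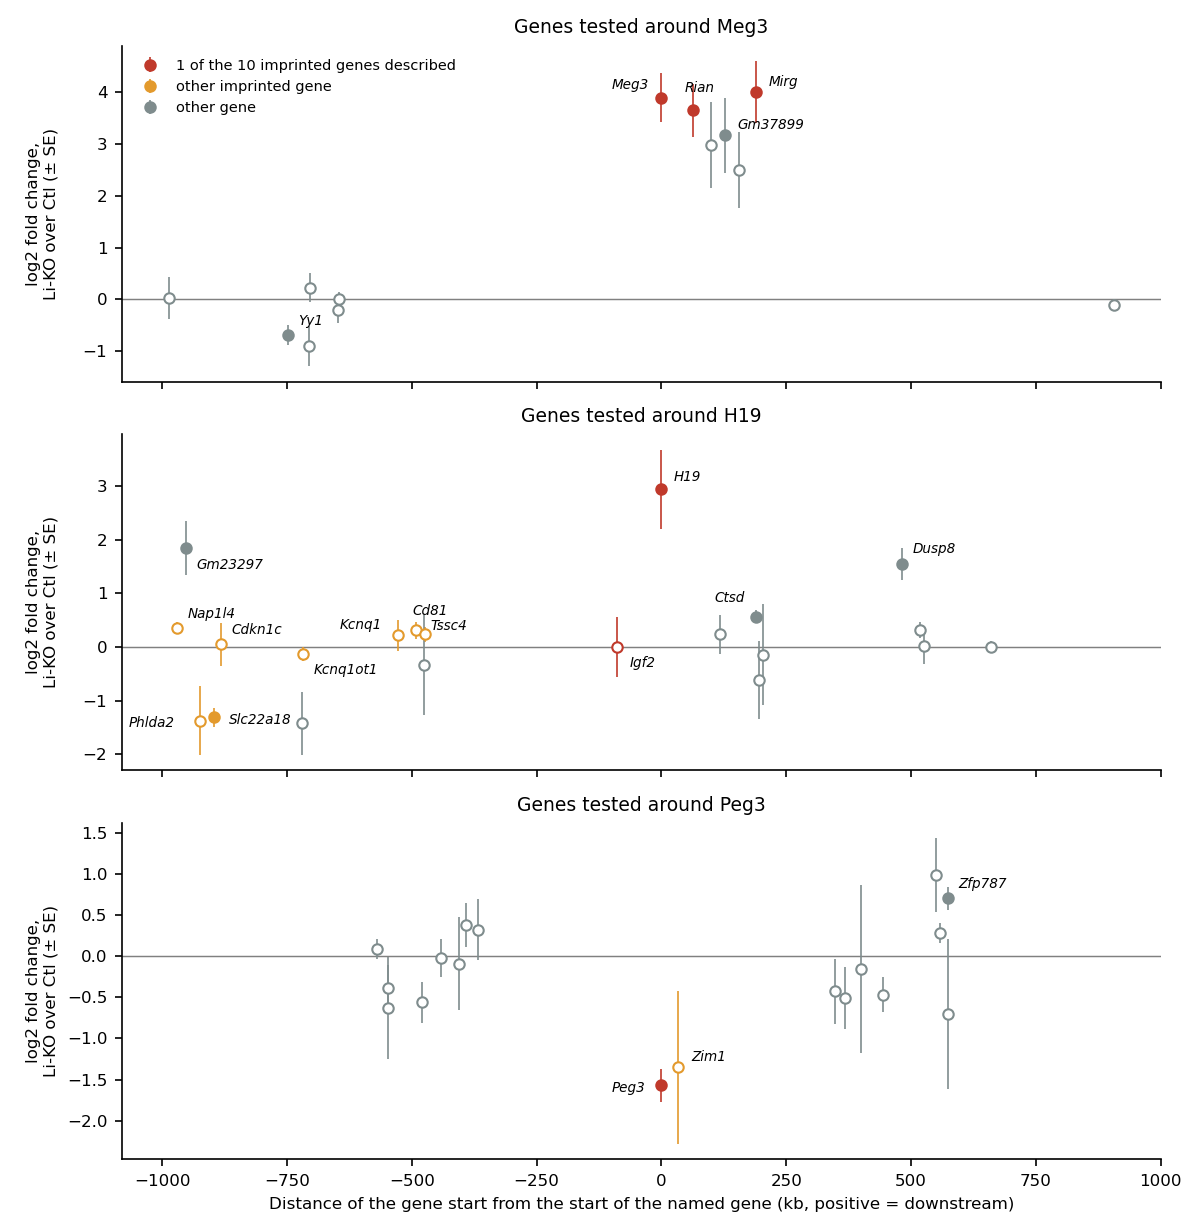
Log2 fold change of Li-KO over Ctl with its SE for every gene tested whose start lies within 1 Mb of the start of Meg3, H19 or Peg3, against the distance in kb along the direction of transcription of the named gene. Filled points were called at an adjusted p under 0.05 and open points were not; the 6 tested transcripts from Meg3 to Mirg stand between 2.50 and 4.01, while H19 stands at 2.94 and Peg3 at -1.57.

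H19 (ENSMUSG00000000031.15, chr7:142575529-142578143, minus strand), a maternal noncoding RNA, was scarce in both groups. Its level was 5.51, 1.28 and 0.972 CPM in Li-KO replicates 0, 1 and 2, against 0.431, 0.377 and 0.186 CPM in Ctl replicates 0, 1 and 2. The groups did not overlap, but Li-KO replicate 0 was several times higher than the other Li-KO libraries. Those values rest on 171, 40 and 40 counts in Li-KO and 18, 14 and 7 in Ctl, and 2 of 3 Ctl libraries exceeded the filter. H19 thus passed the filter on low counts through its Li-KO libraries, so that its call has little weight as a test. The means were 2.59 ± 2.53 CPM in Li-KO and 0.331 ± 0.129 CPM in Ctl, with a log2 fold change of 2.94 ± 0.74. Without Li-KO replicate 0 the log2 fold change was 1.77 and H19 was not called, and the call was also lost without Li-KO replicate 1 or any 1 Ctl library, where it ran from 2.66 to 3.26, and with limma-voom and the 3 fits on FPKM.

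Igf2 (ENSMUSG00000048583.16, chr7:142650766-142666816, minus strand) is a fetal growth factor gene beside H19 and was not called. It had 0.838, 0.321 and 0.316 CPM in Li-KO replicates 0, 1 and 2, against 0.599, 0.511 and 0.345 CPM in Ctl replicates 0, 1 and 2. The groups overlapped, and the means were 0.492 ± 0.3 CPM in Li-KO and 0.485 ± 0.129 CPM in Ctl, from 10 to 26 counts per library. The log2 fold change was 0.01 ± 0.56, an SE that leaves room for a difference in either direction. Its alternative start sites were summed in the gene's counts.

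Li-KO replicate 0 was also high in some transcripts of other cells. Col3a1, a fibrillar collagen of stellate cells and fibroblasts, had 237, 91.8 and 46.7 CPM in Li-KO replicates 0, 1 and 2, against 40.3, 53.6 and 63.9 CPM in Ctl. Spp1 (osteopontin, made by cholangiocytes) had 144, 56.8 and 40.4 CPM in Li-KO, against 18.9, 31.9 and 42.8 CPM in Ctl. Neither gene was called (adjusted p = 0.137 and 0.092, edgeR). Markers of the same lists differed in that library. Col1a1 and Col1a2 were also highest there, but Reln (205 CPM), Dcn (143 CPM) and Krt7 (0.483 CPM) were at their lowest of all libraries. Summed over 15 stellate and fibroblast markers, the level was 641 to 825 CPM in Li-KO and 701 to 754 CPM in Ctl, with 0 called higher and 2 called lower, Rgs5 and Hand2. Summed over 8 cholangiocyte markers it was 60.5 to 164 CPM in Li-KO and 45.5 to 78.2 CPM in Ctl, with Sox9 called lower (-2.39 ± 0.24, adjusted p = 0.00153, edgeR) and no other marker called. At an unadjusted p under 0.05 edgeR gave 3 of these 8, Sox9, Spp1 and Epcam, and the DESeq2 Wald test called 1 of them higher, Epcam, beside Sox9. Of the 15 stellate and fibroblast markers edgeR gave 7 at that threshold. Col3a1, Col1a2, Tagln and Ngfr were higher in Li-KO, and Dcn, Hand2 and Rgs5 were lower. The Wald test called 0 of these 15 higher and 2 lower. The sums rest largely on few genes. Spp1 gave 144 of the 164 CPM of cholangiocyte markers in Li-KO replicate 0, and Reln and Dcn gave a large part of the stellate and fibroblast sum in every library. No marker of either list was at 0 in all libraries, and the part of these cells in the level of H19 was not tested.

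Other cell and tissue lists were read in the same way. Beside the calls in all of these lists, 12.0% of all genes tested were called changed. Endothelial markers summed to 659 to 1072 CPM in Li-KO and 909 to 1000 CPM in Ctl, with 0 of 10 called, and Kupffer cell markers to 279 to 406 CPM in Li-KO and 307 to 441 CPM in Ctl, with 0 of 8 called. At an unadjusted p under 0.05 edgeR gave 1 endothelial marker, Fcgr2b, and 1 Kupffer cell marker, Timd4, and the DESeq2 Wald test called 1 endothelial and 0 Kupffer cell markers. Adrenal gland, an organ rich in Meg3 and H19, was represented by 7 markers that summed to 3.09 to 11.9 CPM in Li-KO and 5.17 to 15 CPM in Ctl. Most of each sum came from Cyp21a1 and Star. The adrenal genes Cyp11b1 and Mc2r were at 0 in every library. Hsd3b1 had 9, 0 and 1 counts in Li-KO and 0, 0 and 2 in Ctl, and Cyp11a1 had 4, 0 and 0 against 1, 0 and 0. Cyp11b2 had 0, 0 and 2 counts in Li-KO and 0 in every Ctl library. The part of adrenal tissue in the levels of Meg3 and H19 was not tested. Pancreas markers, 5 of 8 at 0 throughout, summed to 6.22 to 9.15 CPM in Li-KO and 7.5 to 12.8 CPM in Ctl. Skeletal muscle markers, 3 of 7 at 0 throughout, summed to 0.486 to 0.902 CPM in Li-KO and 0.531 to 0.623 CPM in Ctl. Of 6 hepatocyte markers tested, the lectin subunit Asgr2 was called higher and the tryptophan dioxygenase Tdo2 lower, and 4 were not called. The call of Asgr2 and those of Rgs5 and Hand2 were lost without Li-KO replicate 1, Ctl replicate 1 or Ctl replicate 2. Hnf4a, a defining hepatocyte factor, had 1006 to 1395 CPM in Li-KO and 1215 to 1354 CPM in Ctl, and was thus abundant in both groups.

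Peg3 (ENSMUSG00000002265.16, chr7:6703892-6730431, minus strand) encodes a zinc finger protein and is transcribed from the paternal chromosome. It had 7.61, 6.29 and 9.41 CPM in Li-KO replicates 0, 1 and 2, against 23.3, 26.6 and 19.3 CPM in Ctl replicates 0, 1 and 2. Every Li-KO library was below every Ctl library. The means were 7.77 ± 1.56 CPM in Li-KO and 23.1 ± 3.63 CPM in Ctl, a ratio of 0.337, with a log2 fold change of -1.57 ± 0.20. The call stood in all 15 alternatives, at -1.74 to -1.44 when 1 library was left out and at -0.78 on FPKM with a pseudocount of 1. Within the Peg3 domain, Usp29 was listed at 0 in all libraries. The zinc finger gene Zim1 had 0.161, 0 and 0.365 CPM in Li-KO, against 0.815, 0.242 and 0.345 CPM in Ctl, and its groups overlapped (-1.35 ± 0.93, adjusted p = 0.373, edgeR). How strand was used in the counting is not stated in these sources, so reads from genes that overlap on opposite strands cannot be assigned with certainty.

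Igf2r (ENSMUSG00000023830.13, chr17:12682406-12769664, minus strand), the receptor that clears IGF2, was the most abundant of the 10 genes in Ctl liver by FPKM. It had 220, 201 and 204 CPM in Li-KO replicates 0, 1 and 2, against 151, 152 and 176 CPM in Ctl replicates 0, 1 and 2. The groups did not overlap, yet with a log2 fold change of 0.38 ± 0.12 it was not called. With the DESeq2 Wald test it was called, at 0.39 on the log2 scale. Airn, the noncoding RNA antisense to part of Igf2r, averaged 1.38 ± 0.296 CPM in Li-KO and 0.8 ± 0.465 CPM in Ctl (0.79 ± 0.54, adjusted p = 0.368, edgeR).

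Plagl1 (ENSMUSG00000019817.18, chr10:13060504-13131694, plus strand), a zinc finger factor that regulates other imprinted genes, had 2.42, 1.41 and 1.80 CPM in Li-KO, against 3.21, 1.86 and 2.39 CPM in Ctl. Grb10 (ENSMUSG00000020176.17, chr11:11930508-12038683, minus strand), an adaptor that restrains insulin signalling, had 14.1, 18.3 and 10.7 CPM in Li-KO, against 9.61, 13.8 and 13.1 CPM in Ctl. The groups overlapped for both, and neither was called, with log2 fold changes of -0.41 ± 0.34 and 0.24 ± 0.23. Tissue-specific start sites of Grb10 were summed in the gene's counts.

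Over the 9 tested genes the median log2 fold change was 0.38, against -0.01 over all genes tested, with 4 called higher, 1 lower and 4 not called, beside 12.0% of all genes called changed. The groups did not overlap for 6 of the 9, beside 35.2% of all genes. Because the genes were chosen on this comparison, nothing is read from these counts beside the shares of all genes.

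FPKM, which scales fragments to transcript length and library depth, allows levels to be set between genes. In Li-KO liver the order by mean FPKM was Rian (47.7 ± 16.6), Meg3 (34.0 ± 8.39), Igf2r (16.2 ± 0.622), Mirg (2.85 ± 1.49), Grb10 (2.11 ± 0.6), H19 (1.38 ± 1.41), Peg3 (0.598 ± 0.107), Plagl1 (0.305 ± 0.0637) and Igf2 (0.108 ± 0.0482), with Dlk1 last. Rian and Meg3 overlapped, as did Mirg with Grb10, and H19 with Mirg, Grb10 and Peg3. In Ctl liver Igf2r led with 12.8 ± 1.18 FPKM, and Rian followed with 4.66 ± 3.12 FPKM. Grb10 (1.86 ± 0.339 FPKM), Meg3 (1.82 ± 0.732 FPKM) and Peg3 (1.74 ± 0.284 FPKM) came next and did not differ beyond their spread, nor from the widely spread Rian. Plagl1 (0.403 ± 0.111 FPKM), Mirg (0.185 ± 0.153 FPKM), H19 (0.185 ± 0.0092 FPKM) and Igf2 (0.11 ± 0.0574 FPKM) were lower, with Dlk1 at 0, and the libraries of Mirg overlapped those of Plagl1, H19 and Igf2. Thus Meg3 and Rian stood above Igf2r in Li-KO liver and below it in Ctl liver in every library.

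Within the Dlk1-Meg3 domain the proportion of Rian to Meg3 did not separate the groups. The ratio of their FPKM was 1.49, 1.11 and 1.55 in Li-KO replicates 0, 1 and 2, against 1.3, 4.21 and 1.94 in Ctl replicates 0, 1 and 2. The ratio of Mirg to Rian was 0.068, 0.0457 and 0.058 in Li-KO, against 0.0271, 0.0451 and 0.0349 in Ctl, so that the groups did not overlap but nearly met. The ratio of H19 to Igf2 was 18.5, 6.09 and 8.22 in Li-KO, against 1.05, 1.89 and 3.1 in Ctl, with no overlap. In Ctl it rests on 18, 14 and 7 counts of H19 and 25, 19 and 13 of Igf2. FPKM did not always follow the counts. H19 had 0.183, 0.177 and 0.195 FPKM in Ctl, highest where its counts were fewest. In Ctl replicate 1, Rian and Meg3 had 7.63 and 1.81 FPKM but 6.65 and 6.06 CPM. These ratios restate the same libraries and were given no test.

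**Figure D3:**
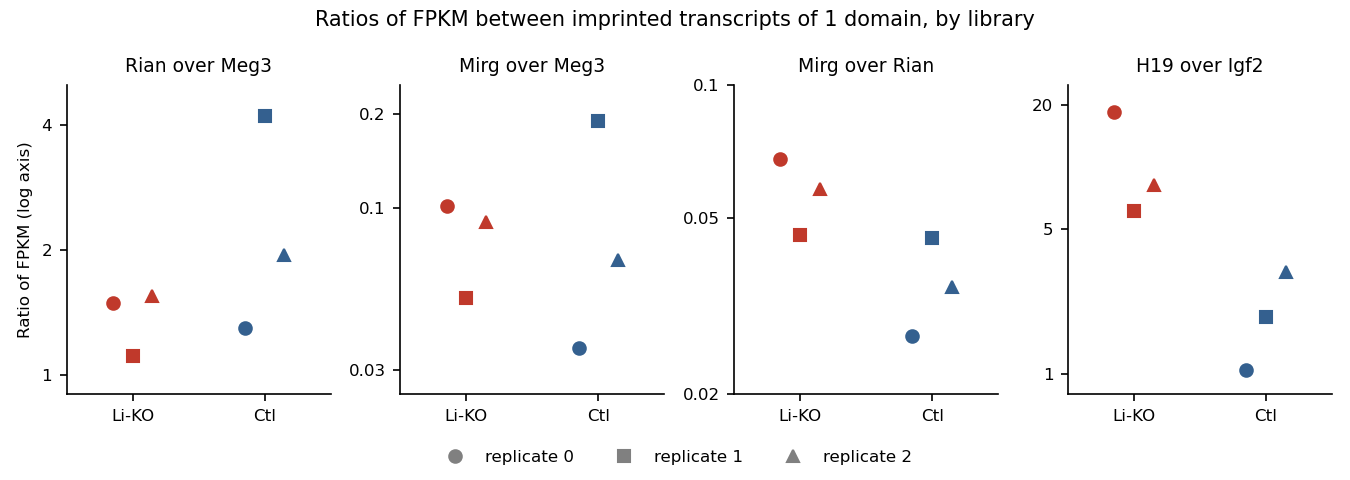
Ratio of FPKM between transcripts of the same domain in each library on a log axis, with Li-KO left (red) and Ctl right (blue). Rian over Meg3 and Mirg over Meg3 overlap between the groups, and H19 over Igf2 runs from 6.09 to 18.5 in Li-KO and from 1.05 to 3.1 in Ctl.

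Genes listed as imprinted, outside the 10, were called in both directions. Whether each is transcribed mainly from 1 parental copy in this liver was not tested, since the alleles were not separated. Of 62 other imprinted genes listed, 39 were tested, 2 were called higher, 2 lower and 35 were not called, beside 12.0% of all genes tested called changed, with a median log2 fold change of -0.01, the same as over all genes. Slc22a3, an organic cation transporter near Igf2r, had 22.8, 21.3 and 10.1 CPM in Li-KO, against 4.19, 6.06 and 6.42 CPM in Ctl, and was called higher (1.70 ± 0.32, adjusted p = 0.0157, edgeR). Commd1, a copper homeostasis gene, averaged 36.0 ± 1.65 CPM in Li-KO and 26.1 ± 2.75 CPM in Ctl (0.46 ± 0.13, adjusted p = 0.0489, edgeR). On the lower side, the transporter Slc22a18 had 45.3, 35.0 and 31.5 CPM in Li-KO, against 111, 82.5 and 84.3 CPM in Ctl (-1.31 ± 0.18, adjusted p = 0.00525, edgeR). The retrotransposon-derived gene Peg10 averaged 1.14 ± 0.415 CPM in Li-KO and 3.65 ± 1.12 CPM in Ctl (-1.67 ± 0.39, adjusted p = 0.0313, edgeR).

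Slc22a18 kept its call in all 15 alternatives, while the other 3 lost theirs without Li-KO replicate 1 or without Ctl replicate 1, among other settings. The number called was 1 without either of those libraries, 2 without Li-KO replicate 0, Ctl replicate 0 or Ctl replicate 2, and 7 without Li-KO replicate 2. Slc38a4, an amino acid transporter and by CPM the most abundant of the list, averaged 1895 ± 177 CPM in Li-KO and 1839 ± 441 CPM in Ctl (adjusted p = 0.914, edgeR). The noncoding RNA Kcnq1ot1 averaged 301 ± 25.9 CPM in Li-KO and 327 ± 28.9 CPM in Ctl (adjusted p = 0.576, edgeR). Cdkn1c, Mest and Ndn, known with H19 and Igf2 for their fall after birth, had log2 fold changes of 0.05, -0.01 and 0.64 and were not called. A further 10 of the 62 genes, Magel2, Ascl2 and Ins2 among them, were at 0 in all libraries.

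**Figure D4:**
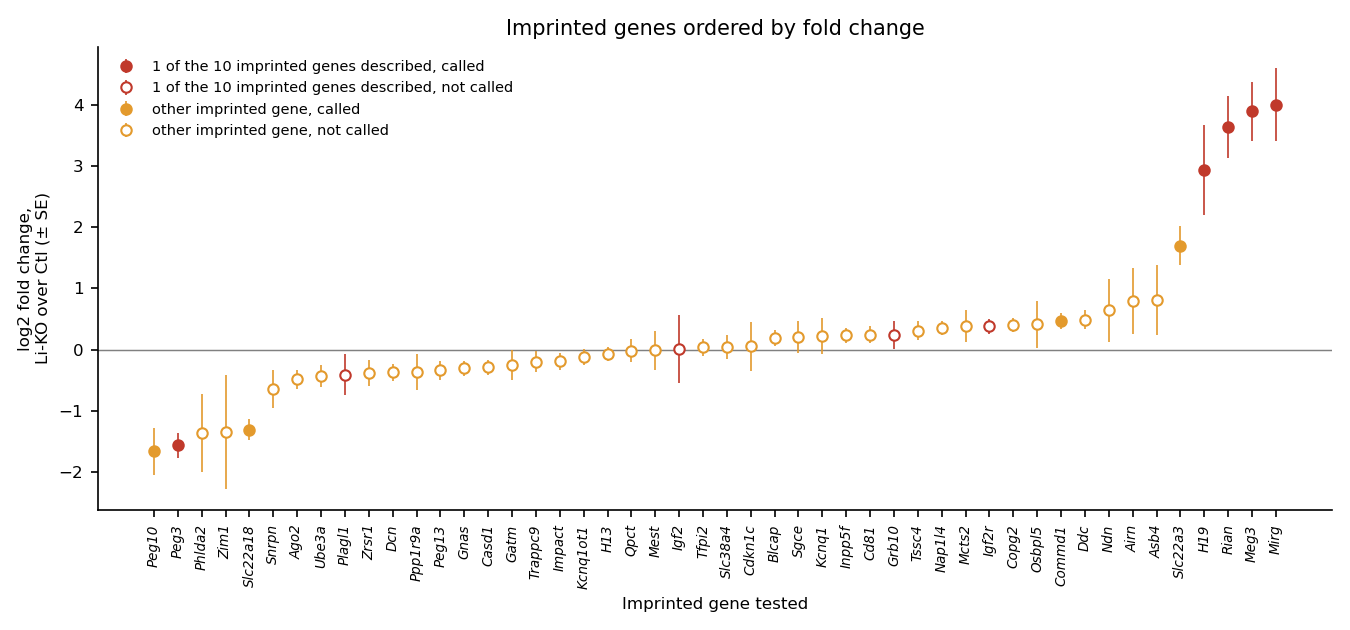
Log2 fold change of Li-KO over Ctl with its SE for the 48 imprinted genes tested, ordered from the lowest to the highest, with the 9 described in detail in red and the 39 others in orange. Filled points were called at an adjusted p under 0.05: Mirg, Meg3, Rian and H19 form the upper end, Peg10 and Peg3 the lower end, and most of the rest lie near 0.

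Among the 37 genes of no imprinted list tested within 1 Mb of Meg3, H19 or Peg3, 5 were called higher and 1 lower, beside 6.11% and 5.9% of all genes tested, so that these small counts are not read as a result about the neighbourhoods. Beside Gm37899 these were, around H19, the phosphatase gene Dusp8 (7.49 ± 0.704 CPM in Li-KO and 2.55 ± 1.06 CPM in Ctl, 1.55 ± 0.30, adjusted p = 0.0181, edgeR), the lysosomal protease gene Ctsd (0.57 ± 0.12, adjusted p = 0.0227, edgeR) and the small nucleolar RNA gene Gm23297 (1.84 ± 0.50, adjusted p = 0.046, edgeR). Around Peg3 the zinc finger gene Zfp787 was called higher (0.70 ± 0.14, adjusted p = 0.0205, edgeR). Yy1, a zinc finger factor known to bind the Peg3 control region, lies within 1 Mb of Meg3. It had 26.4, 31.9 and 44.1 CPM in Li-KO, against 53.0, 52.3 and 60.2 CPM in Ctl, and was called lower (-0.69 ± 0.19, adjusted p = 0.0471, edgeR). No neighbour was called without Li-KO replicate 1, Ctl replicate 1 or Ctl replicate 2, and 3 were called without Li-KO replicate 0. Within 0.5 Mb 3 of 18 were called, all higher.

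Imprinting control factors, not all of which keep imprints, were examined as a list of 20 genes, of which 18 were tested. Of these, 2 were called higher and 0 lower, beside 6.11% and 5.9% of all genes tested. These small counts are not read as a result about the list. At an unadjusted p under 0.05 edgeR gave 7 of them, and the DESeq2 Wald test and limma-voom called the same numbers, 2 and 0. Ctcfl, a testis paralogue of the insulator protein CTCF, had 2.77, 2.34 and 1.87 CPM in Li-KO, against 0.743, 0.565 and 0.637 CPM in Ctl (1.84 ± 0.34, adjusted p = 0.0151, edgeR). Trim28, a corepressor recruited by zinc finger proteins at imprinted control regions, averaged 96.7 ± 5.95 CPM in Li-KO and 72.4 ± 3.6 CPM in Ctl (0.42 ± 0.11, adjusted p = 0.0419, edgeR). Both lost the call without Li-KO replicate 1, Ctl replicate 1 or Ctl replicate 2, and Trim28 also without Li-KO replicate 0 or Ctl replicate 0. The maintenance methyltransferase Dnmt1 had a log2 fold change of 0.00 ± 0.16 (adjusted p = 0.991, edgeR), Zfp57, which guards methylated control regions, 0.61 ± 0.48 (adjusted p = 0.437, edgeR) and Ctcf -0.37 ± 0.12 (adjusted p = 0.0757, edgeR). DNA methylation was not measured.

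Genes of the fetal liver that are silenced after birth were called in both directions. Of 11 listed, 6 were tested, 1 was called higher, 1 lower and 4 were not called. Over all genes tested, 6.11% were called higher and 5.9% lower, and counts this small are not read as a result about the list. Sall4, a stem cell and fetal liver zinc finger factor, had 76, 58 and 161 counts in Li-KO, against 0, 0 and 5 in Ctl, and the groups did not overlap. It passed the filter on low counts through its Li-KO libraries alone, so that its call has little weight as a test, and with Ctl close to 0 its fitted fold change depends on the prior count and is not given. Lpl, the lipoprotein lipase, was called lower (-1.04 ± 0.25, adjusted p = 0.0331, edgeR), a call lost without Li-KO replicate 1 or 2 or Ctl replicate 1 or 2. Afp, alpha-fetoprotein, had 2.42, 0.385 and 1.19 CPM in Li-KO, against 0.911, 0.377 and 1.01 CPM in Ctl, and its groups overlapped (adjusted p = 0.464, edgeR). Gpc3, a glypican of fetal liver, had a log2 fold change of 0.69 ± 0.44 (adjusted p = 0.334, edgeR). Afp and Gpc3 were highest in Li-KO replicate 0, as H19 and Igf2 were, while of the other 4 genes tested Sall4 was highest in Li-KO replicate 2, Lpl and Cd24a in Ctl replicate 2 and Igf2bp2 in Ctl replicate 1.

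Among 7 regulators of that silencing, 0 were called higher and 2 lower, beside 6.11% and 5.9% of all genes tested. Their median log2 fold change was -0.46, against -0.01 over all genes. Counts this small are not read as a result about silencing. The DESeq2 Wald test and limma-voom also called 0 higher, and 4 had an unadjusted edgeR p under 0.05. The number called lower was 4 with the Wald test, 2 with limma-voom and 0 with limma on log2(FPKM + 0.1). Zbtb20, a repressor of Afp, averaged 874 ± 19.9 CPM in Li-KO and 1404 ± 277 CPM in Ctl (-0.68 ± 0.17, adjusted p = 0.0368, edgeR). Zfhx3, a homeobox factor that also acts on Afp, averaged 32.9 ± 2.55 CPM in Li-KO and 69.0 ± 20.7 CPM in Ctl (-1.07 ± 0.21, adjusted p = 0.0169, edgeR). Zhx2, known in mice to hold down Afp and H19 after birth, had 41.3, 36.5 and 35.8 CPM in Li-KO, against 44.7, 56.4 and 54.9 CPM in Ctl. Its groups did not overlap but it was not called (-0.46 ± 0.13, adjusted p = 0.0597, edgeR). Both calls were lost without Li-KO replicate 1 or Ctl replicate 1, and each also under other settings.

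Cell cycle genes gave no call among 8 tested, and their summed level was 13.9 to 26.7 CPM in Li-KO and 13.1 to 21.9 CPM in Ctl. Among 5 nuclear-retained RNAs tested 0 were called. Over all genes tested 12.0% were called changed, so counts this small are not read as a result about either list. Neat1, the scaffold of nuclear paraspeckles, had 9061, 9873 and 3560 CPM in Li-KO, against 4642, 5369 and 2246 CPM in Ctl, so that the libraries varied widely within each group (adjusted p = 0.213, edgeR). At an unadjusted p under 0.05 edgeR gave 2 cell cycle genes and 0 nuclear-retained RNAs, the DESeq2 Wald test called 1 and 0, and limma-voom called 0 of either list. With the replicate block 0 cell cycle genes and 1 nuclear-retained RNA, Neat1, were called.

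The genes most alike in pattern over the 6 libraries were found by Pearson correlation of log2 CPM, a description driven largely by the difference between the groups and by shared libraries. For Meg3 they were Snap47 (r = 0.9979), Pdzk1, Tstd3, Inca1 and Chd4 (r = 0.9911), with log2 fold changes of 0.25 to 1.11, all well under that of Meg3. For H19 they were Tuba8, Pam, Abhd4, Rgl2 and Cdk5, with r of 0.9933 to 0.9953. Tuba8, an alpha-tubulin, had 45.3, 11.9 and 12.4 CPM in Li-KO, against 5.22, 5.19 and 2.97 CPM in Ctl, and thus shared the high value of H19 in Li-KO replicate 0. For Peg3 they were Zfp652 (r = 0.9987), Rab11fip2, Cdyl2, Sema3d and Nfix (r = 0.9954), all lower in Li-KO, with log2 fold changes of -1.22 to -0.47.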

How the data were processed

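Liver RNA from 3 Li-KO and 3 Ctl libraries was isolated on columns and sequenced with a stranded total RNA kit, per the labels' protocols, though the series' design text speaks of mRNA. Reads were aligned to mm10 with STAR and processed with Cufflinks and Cuffdiff, per the submitters' processing notes; tool versions, gene annotation and strand use were not given in the sources used here. Raw fragments are deposited as estimated counts, 3.29% of them not whole, beside FPKM scaled between libraries by the authors' Cuffdiff run, per the file headers. Condition names were matched to the groups through titles and replicate numbers, and 0 rows were left without a sample. Genes marked as skipped in a library (77) are listed at 0 and were left out.

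Gene IDs were matched to symbols for 48051 genes, and 381 were not matched. Positions came from GENCODE on mm10. Estimated counts were rounded, filtered with filterByExpr (minimum count 10, minimum total 15) and scaled by TMM. Li-KO was compared with Ctl with edgeR 4.0.16 (quasi-likelihood, two-sided) with the group as the only term, in R 4.3.3. Benjamini-Hochberg adjustment ran over 16533 genes, with calls at an adjusted p under 0.05, and the SE was derived from the log2 fold change and its F statistic. The fit was tested on simulated data. Alternatives used DESeq2 1.42.0, limma 3.58.1 on counts and on log2(FPKM + 0.1) and log2(FPKM + 1), other filters and scalings, the replicate block and each library left out. Promoter and microRNA sequences came from RefSeq tables on GRCm38.p6 and were searched with Python 3.11.15.

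Named genes were the 10 described, Klf15, called genes of the lists and of the neighbours, and the 5 genes most alike in pattern to Meg3, H19 and Peg3. Other genes of the lists were named as examples after their values were seen. A listed gene is not reported here and was left out of its list. The genes and lists were chosen with earlier results of these data known.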

Additional observations from a re-analysis of the deposited data

How the results depend on the processing

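Meg3, Rian, Mirg and Peg3 kept their direction and call in all 15 alternatives, and H19 kept its direction but lost its call in 9. All alternatives reuse the libraries on which these genes were chosen, so they describe the settings only. Of the 10 genes 4 to 6 were called in each alternative, against 5. Igf2, never called, turned to a log2 fold change of -0.13 with limma-voom, -0.08 with the replicate block, and just below 0 (-0.00) in the 3 limma fits on FPKM, and ran from -0.59 to 0.25 with 1 library left out. All genes called numbered 1986, against 3158 with the DESeq2 Wald test, 1271 on log2(FPKM + 0.1), 1172 on log2(FPKM + 1), 905 on FPKM without a filter and 432 to 2549 with 1 library left out, fewest without Ctl replicate 1 (432), Li-KO replicate 1 (476) and Ctl replicate 2 (642). Other imprinted genes called numbered 4, against 7 with the Wald test, 1 in each fit on FPKM and 1 to 7 with 1 library left out. Neighbours called numbered 6, against 3, 3 and 1 in those fits on FPKM, 3 within 0.5 Mb and 0 to 6 with 1 library left out. The causes were not tested. The labels do not state whether the replicate numbers mark a shared batch or day. Same-numbered deviations correlated at 0.02, 0.08 and 0.07, against -0.11 to 0.04 for the other pairs of libraries. These weak correlations do not settle whether the numbers pair the libraries. With the replicate block 1971 genes, 5 of the 10 genes, 2 other imprinted genes and 5 neighbours were called, Gm37899 lost its call, and lower silencing regulators numbered 3 against 2 and nuclear-retained RNAs 1 (Neat1) against 0. Depth limits Dlk1, Igf2, H19 and Mirg, with under 40 counts in every Ctl library.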
